A study of Saccharomyces cerevisiae with 48 samples.

Results

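The genes described here are 59 open reading frames (ORFs) of budding yeast: 58 that code for enzymes of amino acid synthesis, and GCN4, the transcription factor that controls most of them. They were taken by name from a list ordered by pathway (histidine, arginine, lysine, branched-chain, aromatic, threonine, serine, proline, and glutamine with glutamate and asparagine), not by any measured value. HIS3 and LEU2 were left out because the strain lacks them. Of the 59 genes, 44 are among the 3301 genes for which reads were counted, and all 59 are among the 6713 ORFs for which the authors deposited pooled mRNA levels. Statements on counts below cover the 44 counted genes. Coordinates are those of the assembly R64. The 15 others (HIS2, HIS6, HIS7, ARG1, ARG3, ARG7, ARG8, LYS1, LYS20, ILV1, TRP2, TRP3, HOM3, THR1 and SER33) have pooled values only.

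The study followed the diploid strain BY4743 in rich medium (YPD, with dextrose) at 30°C through the cell cycle. Newborn unbudded cells were separated from growing cultures by elutriation in a centrifuge, on the basis of their size, and were harvested once they had grown to 40, 45, 50, 55, 60, 65, 70 or 75 fl. Each size has 3 replicates, A, B and C, and each replicate is a pool of cells of that size collected over repeated elutriations. Every pool gave 1 library of ribosome footprints (the fragments of mRNA that ribosomes protect from nuclease) and 1 library of poly(A) mRNA. BY4743 carries, in all samples, deletions of HIS3, LEU2 and URA3 in both copies and of LYS2 and MET15 in 1 copy, so the cells depended on the medium for histidine, leucine and uracil. Yeast extract and peptone supply amino acids, and no sample was starved of any.

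In yeast most enzymes of amino acid synthesis are under general amino acid control. When uncharged tRNA accumulates, the kinase Gcn2 phosphorylates the initiation factor eIF2, and translation of GCN4, which is otherwise held back by short reading frames upstream of its start codon, increases. Gcn4 then activates its target genes across pathways, while factors such as Lys14, Leu3, Bas1 and Gln3 act on parts of this set.

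Counted reads per library ran from 26360 to 5659096 for footprints and from 248840 to 5797532 for mRNA. The shallowest footprint libraries, 6 in all with fewer than 150000 reads, are 50 fl B and C, 60 fl C, 65 fl B and C, and 70 fl C. The 44 genes took 0.745% to 1.89% of the footprint reads and 0.591% to 1.202% of the mRNA reads. In 3 footprint libraries a single gene, FAR11, took a large share of the reads: 25.1% in 60 fl C, 16.3% in 70 fl A and 9.65% in 60 fl A. It took at most 0.771% in the other footprint libraries. The same 3 libraries had the lowest footprint shares of the 44 genes, 0.745%, 0.999% and 0.916%. Levels are given as CPM, read counts scaled to a common library size. The cell cycle markers HTA1, HTB1 and HHF1, which code for histones made in S phase, had their highest mean mRNA at 60 or 65 fl, and SIC1, an inhibitor expressed at the end of mitosis, at 75 fl.

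Among the 44 counted genes, 18 mRNAs rose along cell size and 3 fell, while 13 differed across the 8 sizes in any shape (edgeR's quasi-likelihood test, adjusted p under 0.05 over all 3301 genes). Those are 40.9%, 6.82% and 29.5% of the counted genes of the list. Among all 3301 genes the shares were 19.4% rising, 22.1% falling and 25.9% differing. The share that differed across sizes was thus near that of all genes, while rising and falling genes were less evenly split in the list. The median slope was 0.018 log2 per 5 fl over the 44 genes and -0.0031 over all genes. Of the 18 rising mRNAs, 10 had their highest mean at 75 fl, 6 at 70 fl and 2 at 65 fl, and 10 had their lowest mean at 45 fl. The 40 fl libraries were thus not the low point for most of them. The 18 were selected by a rising slope, so peaks at large sizes and low points at small sizes follow from that selection. Among all 3301 genes, whatever their slope, 481 had their lowest mean at 45 fl and 796 at 40 fl.

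**Figure D1:**
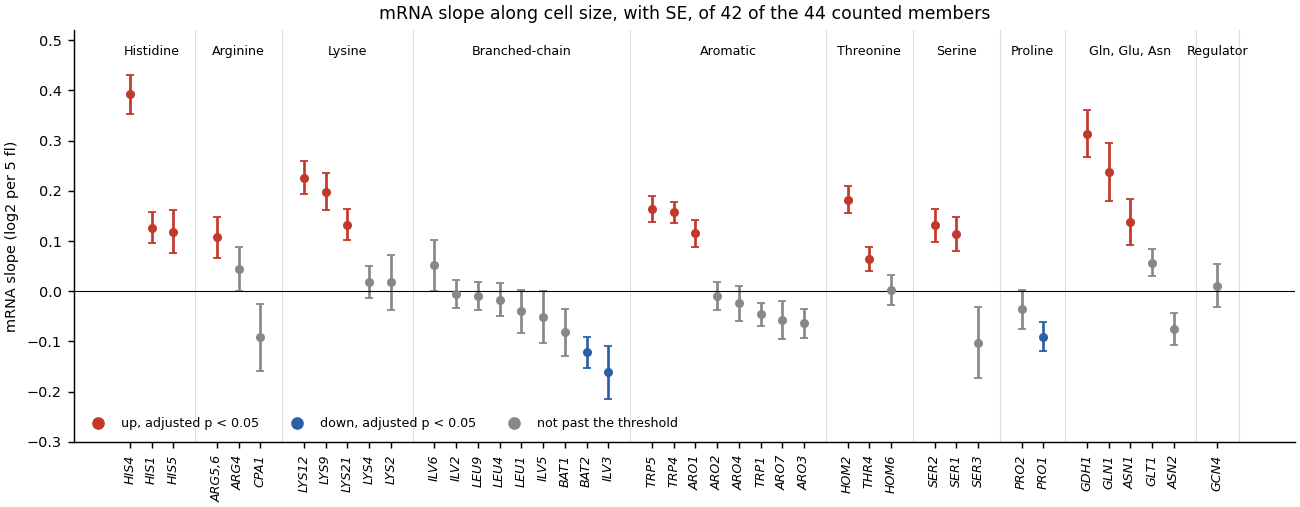
Slope of the mRNA of 42 of the 44 counted genes along cell size (log2 per 5 fl, points) with its standard error (bars), from the edgeR fit to 24 libraries, grouped by pathway. Red points (17) rose, blue points (3) fell, and grey points (22) did not pass the threshold of 0.05 on the adjusted p; the branched-chain and proline groups hold no red point.

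All 3 counted genes of histidine synthesis rose, with slopes of 0.12 to 0.39 log2 per 5 fl. HIS4 (YCL030C, chromosome III, 65934 to 68333), a multifunctional enzyme that carries several steps of the pathway including the last, had 38.3, 54.1 and 40.2 CPM at 45 fl and 199, 232 and 236 CPM at 75 fl in replicates A, B and C. Its 9 libraries at 65, 70 and 75 fl lay between 171 and 295 CPM, all above the 15 libraries at 40 to 60 fl, which lay between 38.3 and 147 CPM. The slope was 0.39 (SE 0.04) log2 per 5 fl, positive in each replicate (adjusted p = 3.16e-08, edgeR), the steepest of the 44. The other counted genes code for the first enzyme of the pathway, HIS1, which rose by 0.13 (SE 0.03, edgeR adjusted p = 0.00192), and for the aminotransferase, HIS5, which rose by 0.12 (SE 0.04, edgeR adjusted p = 0.0289). The call of HIS5 was lost without replicate B, without C and without any single 1 of the libraries 45 fl A, 45 fl B, 75 fl A and 75 fl C, with an edgeR adjusted p of up to 0.259.

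Of the 5 counted genes of glutamine, glutamate and asparagine synthesis, 3 rose and none fell. GDH1 (YOR375C, chromosome XV, 1041678 to 1043042), the NADPH-dependent glutamate dehydrogenase, had 49.1, 45.7 and 71.7 CPM at 45 fl, 116, 57.9 and 119 CPM at 60 fl, and 237, 198 and 246 CPM at 65 fl. No library from 65 fl on was below 172 CPM, and none up to 60 fl was above 151 CPM (40 fl B). Its slope was 0.31 (SE 0.05) log2 per 5 fl, positive in each replicate (adjusted p = 1.27e-05, edgeR). GLN1, glutamine synthetase, averaged 85.9 ± 36.8 CPM at 45 fl and 423 ± 253 CPM at 75 fl (SD, n = 3). Its replicates spread more widely than those of GDH1, since at 55 fl replicate A had 413 CPM and replicates B and C had 78.8 and 111 CPM. The slope of 0.24 (SE 0.06) passed (adjusted p = 0.0018, edgeR) and was positive in each replicate. Its call across sizes (edgeR adjusted p = 0.0428) was lost in 17 of 32 alternatives. The other route to glutamate, GLT1, glutamate synthase, had a slope of 0.06 (SE 0.03) that did not pass (adjusted p = 0.0918, edgeR).

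Asparagine is made by 2 near-identical isozymes, ASN1 and ASN2, and the sources used here do not say how reads that fit both were assigned. ASN1 had 132, 139 and 94.0 CPM at 45 fl and 198, 467 and 202 CPM at 75 fl, and rose by 0.14 per 5 fl (SE 0.05, edgeR adjusted p = 0.0169). ASN2 had 243, 190 and 222 CPM at 45 fl and 140, 224 and 122 CPM at 75 fl, and its slope of -0.08 (SE 0.03) did not pass (edgeR adjusted p = 0.0588). The log2 ratio of ASN1 to ASN2 was -0.85 ± 0.39 at 45 fl and 0.76 ± 0.28 at 75 fl (SD, n = 3). Between these sizes its SD reached 1.49 at 60 fl. There ASN1 had 238, 58.2 and 99.5 CPM and ASN2 115, 223 and 111 CPM in replicates A, B and C. ASN1 was above ASN2 in A only and furthest below it in B. An F statistic across the 8 sizes did not separate the ratio from chance (permutation test with 100000 resamples, p = 0.212, adjusted over 4 pairs 0.424). The slope of the ratio along size, 0.22 per 5 fl and positive in each replicate, did pass as an alternative statistic (permutation p = 0.00235, adjusted 0.0094). The call of ASN1's own slope was lost without replicate B, without replicate C and without the single library 75 fl B (highest edgeR adjusted p = 0.213).

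**Figure D2:**
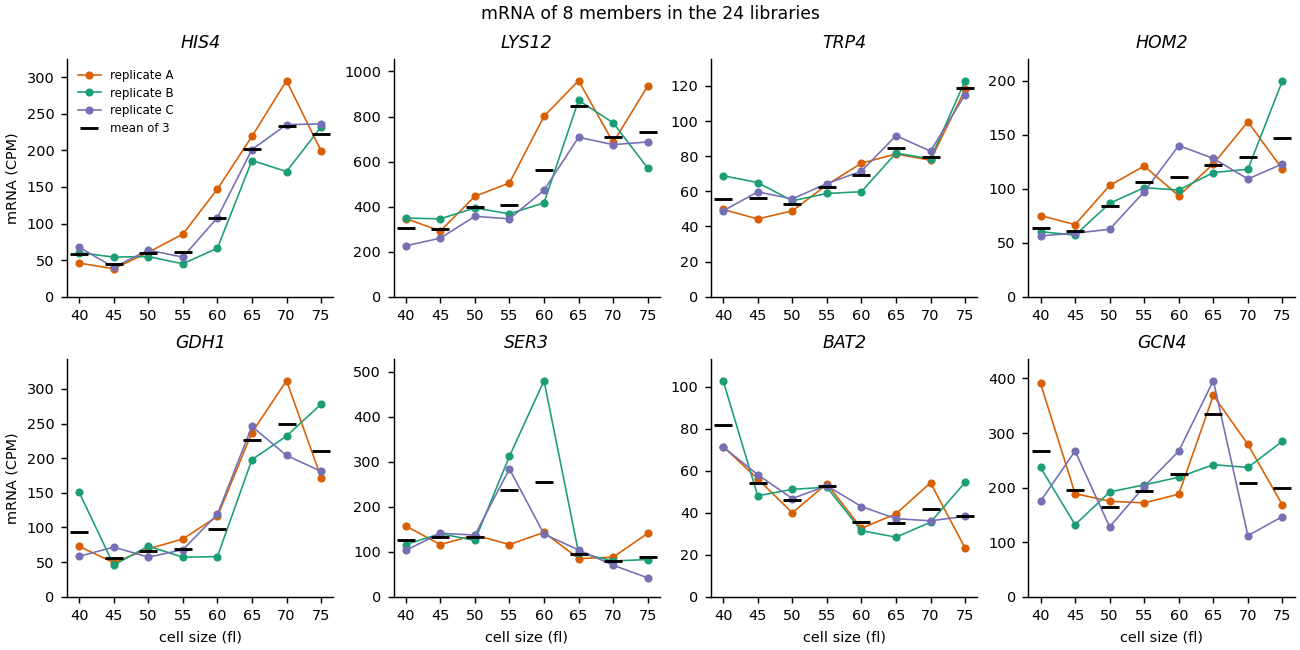
mRNA of 8 genes in CPM (linear axis from 0) against cell size (fl) in the 24 libraries, with 1 coloured line per replicate and a black dash at the mean of the 3 replicates. HIS4 and GDH1 had at least 171 and 172 CPM in all 9 libraries from 65 fl on and at most 147 and 151 CPM at smaller sizes, SER3 peaked at 55 and 60 fl in replicate B and at 55 fl in replicate C, and GCN4 showed no common course.

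In the lysine pathway, which runs through alpha-aminoadipate in fungi, 3 of 6 counted genes rose and none fell. LYS12 (YIL094C, chromosome IX, 186517 to 187632), homoisocitrate dehydrogenase, had 347, 349 and 226 CPM at 40 fl and 959, 872 and 708 CPM at 65 fl. Its 9 libraries from 65 fl on had 571 to 959 CPM, and of the 15 at 40 to 60 fl only 60 fl A (801 CPM) reached that range. LYS9, saccharopine dehydrogenase of the next to last step, likewise had its highest mean at 65 fl, with 181, 171 and 200 CPM. The slopes were 0.23 (SE 0.03, adjusted p = 7.26e-06, edgeR) for LYS12 and 0.20 (SE 0.04, adjusted p = 0.00014, edgeR) for LYS9. LYS21, a homocitrate synthase that acts first in the pathway, rose by 0.13 per 5 fl (SE 0.03, adjusted p = 0.0012, edgeR). LYS4 and LYS2, which act between these steps, had slopes of 0.0183 and 0.0175 and did not pass. LYS2, alpha-aminoadipate reductase, is present in only 1 copy in this strain and had the lowest mRNA level per length of the 44, 6.94 ± 4.52 CPM per kb (SD, n = 24).

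Serine is made from a glycolytic intermediate, and the genes of this short pathway did not share a course. SER1, the aminotransferase, and SER2, the phosphatase, rose with slopes of 0.11 (SE 0.03, adjusted p = 0.00827, edgeR) and 0.13 (SE 0.03, adjusted p = 0.00211, edgeR). SER1 had 59.3, 41.3 and 73.0 CPM at 45 fl, the size of its lowest mean, and 180, 117 and 106 CPM at 70 fl, that of its highest. The call of SER1's slope was lost without replicate C (edgeR adjusted p = 0.0621). SER3 (YER081W, chromosome V, 322686 to 324095), which codes for the first enzyme, phosphoglycerate dehydrogenase, instead differed across sizes (adjusted p = 0.0141, edgeR) with no slope past the threshold (-0.10, SE 0.07, edgeR adjusted p = 0.246). It had 116, 312 and 284 CPM at 55 fl and 143, 480 and 139 CPM at 60 fl, against 87.7, 79.5 and 70.0 CPM at 70 fl. The peak was therefore a feature of replicates B and C, and the call was lost without B, without C and with limma-voom. SRG1, a noncoding RNA made across the SER3 promoter, overlaps the SER3 ORF by 77 bases in the R64 annotation, so some reads counted for SER3 could come from it. Both are annotated on the same strand, so counting by strand would not separate them.

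In threonine synthesis HOM2, aspartate semialdehyde dehydrogenase, had 66.8, 57.0 and 58.8 CPM at 45 fl and 118, 200 and 123 CPM at 75 fl. The slope was 0.18 (SE 0.03) log2 per 5 fl (adjusted p = 1.03e-05, edgeR). THR4, threonine synthase, also rose (0.06, SE 0.02, edgeR adjusted p = 0.0351), a call lost without any 1 of the 3 replicates and without any single 1 of the libraries 40 fl B, 40 fl C and 65 fl A. HOM6, homoserine dehydrogenase, stands between them in the pathway and had a slope of 0.0030 per 5 fl (SE 0.03), which did not pass (edgeR adjusted p = 0.947).

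In aromatic synthesis 3 of 8 counted genes rose and none fell, with rising and other genes both in the tryptophan branch and in the trunk. TRP4, anthranilate phosphoribosyltransferase, had 44.3, 65.0 and 59.7 CPM at 45 fl and 118, 123 and 115 CPM at 75 fl. TRP4 rose by 0.16 (SE 0.02, adjusted p = 5.57e-06, edgeR) and TRP5, tryptophan synthase, by 0.16 (SE 0.03, adjusted p = 1.79e-05, edgeR). ARO1, a single large protein that catalyses most steps of the shikimate pathway, rose by 0.12 (SE 0.03, adjusted p = 0.00125, edgeR). The 5 others, ARO2, ARO3, ARO4, ARO7 and TRP1, all had slopes below 0, between -0.064 and -0.0098, and none passed. ARO3 and ARO4, the isozymes that commit carbon to the pathway, kept a ratio that was not separable across sizes (permutation test, adjusted p = 0.485).

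In arginine synthesis 2 of 4 counted genes rose. Of these, ARG5,6, which codes for the kinase and the reductase of acetylglutamate, rose by 0.11 (SE 0.04, adjusted p = 0.0345, edgeR). It had 27.6, 64.6 and 37.6 CPM at 40 fl and 49.6, 51.7 and 25.1 CPM at 75 fl, so the ends of the range overlapped and the low values were those of 45 fl (12.1, 34.9 and 20.3 CPM). Leaving out replicate A ended the call of ARG5,6, with an edgeR adjusted p of 0.414. It was also lost without replicate C and without any single 1 of the libraries 45 fl A, 45 fl C, 70 fl A, 70 fl C and 75 fl A. CPA1, a subunit of carbamoyl phosphate synthetase whose translation is repressed by arginine through an upstream peptide, had a slope of -0.09 (SE 0.07) that did not pass.

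In the branched-chain pathway none of the 9 counted genes rose and 2 fell, and 8 of the 9 slopes were below 0 (median -0.04). ILV3, dihydroxyacid dehydratase, had 268, 168 and 84.6 CPM at 40 fl and 61.7, 54.6 and 50.1 CPM at 65 fl. Its slope was -0.16 (SE 0.05, edgeR adjusted p = 0.0145), although 75 fl B again had 186 CPM. BAT2, the cytosolic branched-chain aminotransferase, had 71.6, 103 and 71.4 CPM at 40 fl and 39.5, 28.4 and 37.2 CPM at 65 fl, the sizes of its highest and lowest means. BAT2 fell by 0.12 per 5 fl (SE 0.03, edgeR adjusted p = 0.00286). Of the others, ILV5, acetohydroxyacid reductoisomerase, had the highest mRNA level per length of the 44 (1020 ± 433 CPM per kb, SD, n = 24) and a slope of -0.05 (SE 0.05) that did not pass. ILV3's call was lost without replicate A, without replicate C and without the single library 40 fl A (highest edgeR adjusted p = 0.332), and BAT2's without replicate C (0.0637).

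In proline synthesis PRO1, gamma-glutamyl kinase, fell by 0.09 per 5 fl (SE 0.03, edgeR adjusted p = 0.0124), and PRO2, which acts next, had a slope of -0.04 (SE 0.04) that did not pass. PRO1 had 101, 43.1 and 82.7 CPM at 40 fl and 45.0, 58.6 and 39.7 CPM at 70 fl, so the groups overlapped through 40 fl B. That value rests on 10 reads in the shallowest mRNA library. The slope was below 0 in replicates A and C only, and the call was lost without either of them and without 40 fl A.

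**Figure D3:**
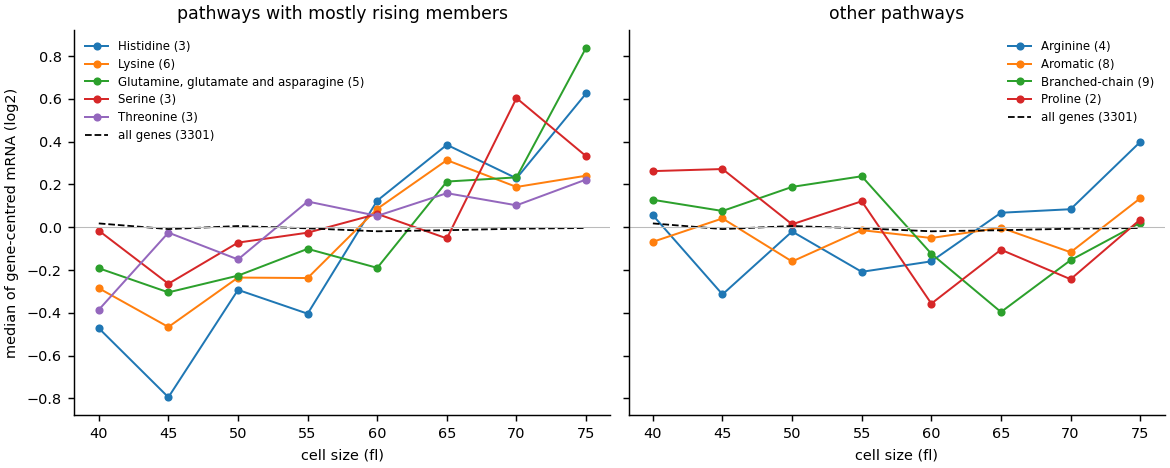
Median over the counted genes of each pathway of the mean mRNA level at each size, centred on the gene's mean over sizes (log2, vertical axis), against cell size (fl), with the number of genes in brackets and the median of all 3301 genes dashed. Histidine ran from -0.79 at 45 fl to 0.63 at 75 fl and glutamine, glutamate and asparagine from -0.30 at 45 fl to 0.84 at 75 fl, while branched-chain genes were lowest at 65 fl (-0.40) and all genes stayed within 0.02 of 0.

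The mRNA of GCN4 itself (YEL009C, chromosome V, 138918 to 139763) was not called. It had 189, 132 and 267 CPM at 45 fl, 369, 242 and 396 CPM at 65 fl and 168, 285 and 147 CPM at 75 fl. Its largest single values were 391 CPM (40 fl A) and 396 CPM (65 fl C), at sizes where another replicate had 175 and 242 CPM. The slope was 0.01 (SE 0.04, edgeR adjusted p = 0.86) and the test across sizes gave an adjusted p of 0.236 (edgeR). The replicates did not share a direction, with slopes of -0.03 in A, 0.085 in B and -0.03 in C.

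Around GCN4, 13 counted genes act on it or its protein. They are the kinase Gcn2, its activators, subunits of eIF2 and eIF2B, and PCL5 and CDC4, which act in turnover of Gcn4 protein. None of the 13 rose and 4 fell (SUI3, GCN3, SUI2 and CDC4), beside 19.4% rising and 22.1% falling among all 3301 genes. The clearest was SUI3, the beta subunit of eIF2, whose slope was -0.29 (SE 0.03, edgeR adjusted p = 1.79e-07), followed by GCN3, the alpha subunit of eIF2B (-0.13, SE 0.03, edgeR adjusted p = 0.000865). GCN2 had a slope of -0.04 (SE 0.03) that did not pass. Of 5 counted regulators of single pathways, LYS14, the activator of lysine genes, and GLN3, the activator of nitrogen-regulated genes such as GLN1, rose, with slopes of 0.08 (SE 0.03, edgeR adjusted p = 0.0205) and 0.09 (SE 0.03, edgeR adjusted p = 0.0242). LEU3, BAS1 and MCM1 did not pass. Of 16 counted amino acid permeases and genes of their external sensor, 5 rose and 3 fell. None of these counts was tested against the shares of all genes, 19.4% rising and 22.1% falling. The general permease GAP1 fell by 0.35 per 5 fl (SE 0.05, edgeR adjusted p = 1.6e-05), and the methionine permease MUP1 and the branched-chain permease BAP3 rose by 0.21 (SE 0.06, edgeR adjusted p = 0.00703) and 0.17 (SE 0.03, edgeR adjusted p = 0.000239). Of 6 counted genes of further synthesis steps, SHM2, the cytosolic serine hydroxymethyltransferase, rose by 0.27 (SE 0.08, edgeR adjusted p = 0.00601), and GDH3, the second NADPH-dependent glutamate dehydrogenase, fell by 0.24 (SE 0.05, edgeR adjusted p = 0.000218), opposite in sign to GDH1.

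The 15 genes without counts can be read only in the authors' deposited table, which holds log2 mRNA levels set against the mean of each gene, with the replicates pooled, and so has no error. In that deposited table, 4 of these 15 were highest in the smallest cells, of 40 fl (ARG1, LYS1, LYS20 and ILV1), whereas 1 peaked at 65 fl, 4 at 70 fl and 6 at 75 fl. For 8 of them the low point was 45 fl. Over all 6713 ORFs the median there was also lowest at 45 fl (-0.30) and highest at 70 fl (0.15). HIS7, glutamine amidotransferase and cyclase of histidine synthesis, had the widest range there, with -0.73 at 45 fl and 1.06 at 75 fl. ARG1, argininosuccinate synthetase, had 0.66 at 40 fl, -0.83 at 60 fl and 0.33 at 75 fl in the authors' deposited table. LYS20, the isozyme of LYS21, had 0.79 at 40 fl and -0.16 at 75 fl in the same deposited table, where LYS21 had -1.10 at 40 fl and 0.78 at 75 fl. SER33, the isozyme of SER3, had -0.58 at 55 fl and 0.73 at 70 fl in the authors' deposited table, where SER3 had 0.57 and -0.74 at those sizes. Within both pairs the isozymes were thus on opposite sides of their means at these sizes. Since LYS20 and SER33 were not counted, their ratios to LYS21 and SER3 were not tested, and reads shared within these pairs are uncertain. The deleted HIS3 is listed with values at all 8 sizes and LEU2 at 6 in the authors' deposited table, which gives no read numbers behind them.

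Before the footprints are described, the labels of replicate A need a remark. For each footprint library the deviation of every gene from its mean over the 8 sizes of that replicate was correlated with the same deviation in mRNA, averaged over the replicates, across the 856 genes whose mRNA differed across sizes. Genes within a library are not independent, so these are descriptions. With the mRNA of their labelled size, the 8 footprint libraries of replicate B correlated by 0.463 on average and those of replicate C by 0.29. The 8 libraries labelled A correlated by -0.277 with the mRNA of their labelled size and by 0.528 with the mRNA of the mirrored size (40 for 75 fl, 45 for 70 fl and so on), where all 8 values were above 0. In B and C the mean correlation with the mirrored size was -0.274 and -0.249. The mRNA libraries labelled A did not show this, with a mean of 0.534 for the labelled and -0.397 for the mirrored size. The footprint libraries labelled A thus go against their size labels. They are used as labelled here, nothing was relabelled, and footprint counts, slopes and levels are given with and without them. Because replicate A is set apart by this comparison with mRNA, agreement of footprints with mRNA in B and C is partly set by that choice.

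The footprints of HIS4 and GDH1, the genes with the steepest mRNA slopes of the list, show the same. Both are among the genes correlated above, so they are examples and no separate evidence. Over all 44 counted genes, footprint slopes were above 0 for 15 in the libraries labelled A, 27 in B and 21 in C. The median slopes were -0.0649 in A, 0.0555 in B and -0.0062 in C, so the list as a whole did not rise in C. The libraries labelled A held 381, 498, 378, 366, 164, 84.3, 80.3 and 65.3 CPM of HIS4 footprints at 40, 45, 50, 55, 60, 65, 70 and 75 fl. Over the same sizes, replicate B had 78.9, 40.7, 160, 49.5, 86.4, 329, 328 and 470 CPM. Replicate C had 85.3, 66.6, 0, 91.2, 131, 254, 836 and 738 CPM. GDH1 footprints were likewise high at the small sizes in the libraries labelled A (818 CPM at 40 fl and 193 CPM at 75 fl) and high at the large sizes in B (224 and 781 CPM) and C (229 and 1020 CPM).

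**Figure D4:**
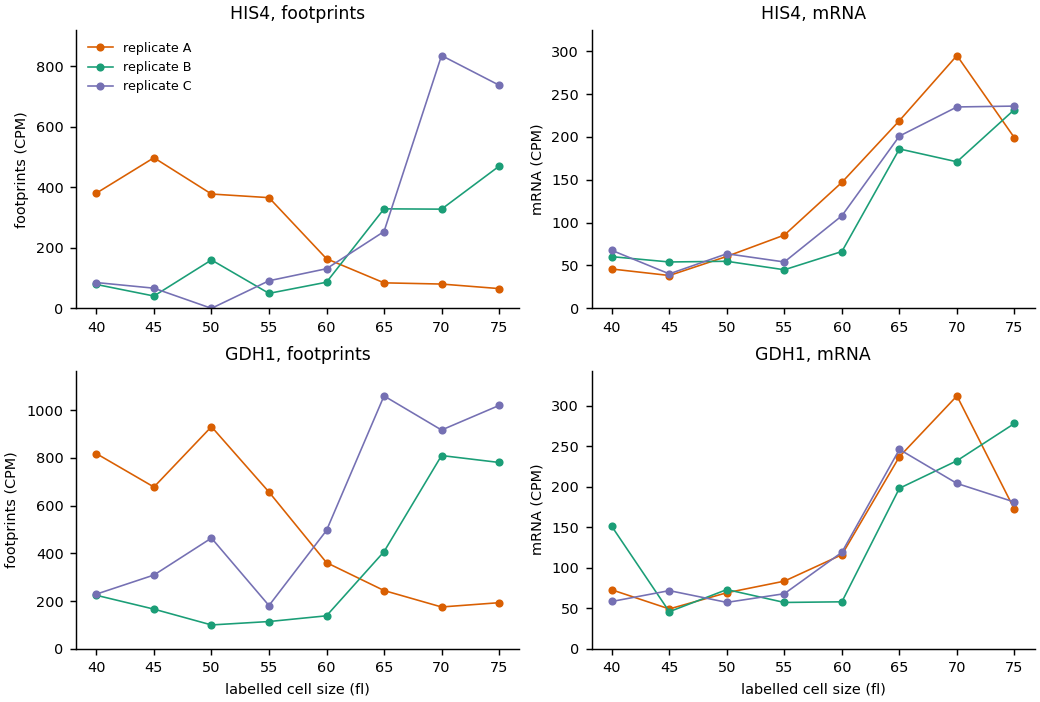
Footprints (left) and mRNA (right) of HIS4 (top) and GDH1 (bottom) in CPM on linear axes from 0, against the labelled cell size (fl), with 1 line per replicate. In footprints the line of replicate A runs down with labelled size while B and C run up, and in mRNA all 3 run up.

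With all 24 footprint libraries, none of the 44 genes was called in footprints, either across sizes or by slope, beside 0.333% and 0% of all 3301 genes (edgeR). At an unadjusted p under 0.05 there were 2 of 44 across sizes, beside 3.82% of all genes, and 3 by slope, beside 5.7%. DESeq2 called 1, ARG5,6, across sizes, beside 1.58% of all genes. These counts are near those of all genes. Without replicate A, 8 of 44 footprint slopes rose and 6 fell, beside 9% and 15.1% of all genes, and 12 genes differed across sizes, beside 18.8% (edgeR, 16 libraries). Of those 16 libraries, 6 hold fewer than 150000 reads, among them both at 50 fl and both at 65 fl. Leaving these out as well, which leaves 10 libraries at 6 sizes and was tried after the data were seen, 12 of the 44 slopes rose and 7 fell, beside 19.9% and 23% of all genes, and 21 genes differed across sizes, beside 45.2%.

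Over replicates B and C the footprints that rose belong to enzymes of several pathways. HIS4 was steepest, with a footprint slope of 0.47 (SE 0.08) log2 per 5 fl (adjusted p = 2.24e-05, edgeR), beside an mRNA slope of 0.38 (SE 0.05) in the same replicates. With the libraries labelled A included, its footprint slope was 0.17 (SE 0.10, edgeR adjusted p = 0.729). LYS12 and LYS9 footprints rose by 0.29 (SE 0.07, edgeR adjusted p = 0.00195) and 0.28 (SE 0.07, edgeR adjusted p = 0.00427), and GDH1 footprints by 0.30 (SE 0.07, edgeR adjusted p = 0.00204). ARO1 (0.29), GLT1 (0.29), HOM6 (0.21) and HOM2 (0.19) made up the rest. Of the 8, HIS4, LYS9, LYS12, ARO1, HOM2 and GDH1 also rose in mRNA over all replicates, where HOM6 and GLT1 had no mRNA slope past the threshold. In replicates B and C alone GLT1 mRNA did rise (0.10, SE 0.03, edgeR adjusted p = 0.026). HOM6 mRNA did not pass there either (0.07, SE 0.03, edgeR adjusted p = 0.126). All 8 footprint slopes were also called without the shallow libraries. With replicate A included the other 7 had footprint slopes of 0.04 (HOM2) to 0.14 (ARO1), none of which passed.

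The footprints that fell over replicates B and C were those of CPA1, ARO3, LEU4, ARG5,6, ASN2 and BAT2. CPA1 fell most, with a footprint slope of -0.46 (SE 0.09, edgeR adjusted p = 0.000181), beside an mRNA slope of -0.18 (SE 0.06) in the same replicates. That mRNA slope passed there too (edgeR adjusted p = 0.0368). The slope of CPA1 footprints relative to mRNA, -0.27 (SE 0.10), did not pass (edgeR adjusted p = 0.242). With replicate A included these 6 had footprint slopes of -0.21 (CPA1) to -0.05 (ASN2), none of which passed (edgeR). ARG5,6 had footprint CPM of 127 in B and 175 in C at 40 fl and 49.3 in B and 18.7 in C at 75 fl, and a footprint slope of -0.28 (SE 0.09, edgeR adjusted p = 0.015). Its mRNA slope in the same replicates was 0.055 (SE 0.05). Without the shallow libraries the call of ARG5,6 was lost (adjusted p = 0.101, edgeR) and the other 5 remained. BAT2, the gene of the cytosolic aminotransferase, fell in footprints (-0.28, SE 0.09, edgeR adjusted p = 0.0234), as its mRNA did.

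Footprint and mRNA slopes over B and C had the same sign for 32 of the 44 genes (72.7%), against 75.6% of all genes. Both shares depend in part on setting replicate A apart for going against the mRNA, so they are no separate evidence that footprints follow mRNA. The 18 genes that rose in mRNA had a median footprint slope of 0.09 and a median mRNA slope of 0.15 in these replicates. The 642 genes of the whole set that rose in mRNA had medians of 0.09 in footprints and 0.12 in mRNA. With replicate A included, the same 18 genes had a median footprint slope of 0.02 and a median mRNA slope of 0.14.

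**Figure D5:**
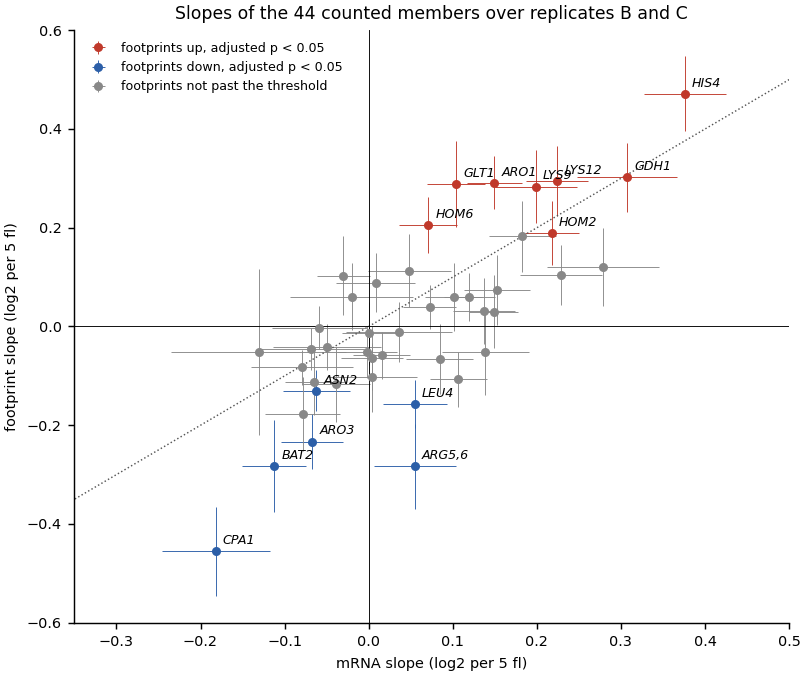
Footprint slope (vertical) against mRNA slope (horizontal) of the 44 counted genes over replicates B and C, both in log2 per 5 fl, with standard errors as bars and a dotted line of equal slopes. Genes named in red (8) rose and those in blue (6) fell in footprints; ARG5,6 and LEU4 lie below 0 in footprints and above 0 in mRNA.

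Translational efficiency, the log2 footprint level less the log2 mRNA level in a pool, was tested as an assay by size interaction. No gene of the list was called with all libraries, beside 0.333% of all genes across sizes and 0% by slope (edgeR). At an unadjusted p under 0.05 there were 2 of 44 across sizes, beside 5.73% of all genes. By slope there were 11 of 44, a larger share than the 12.6% of all genes, with the libraries labelled A in the fit. Of the 11, 10 were among the 18 genes that rose in mRNA, where 17 of 18 efficiency slopes were below 0. Of the 642 genes of the whole set that rose in mRNA, 158 had such a p and 589 an efficiency slope below 0. Over replicates B and C 7 of 44 had such a p by slope, beside 439 of 3301 genes. In replicates B and C alone none of the list was called either, beside 1.06% of all genes across sizes and 0.879% by slope. DESeq2 called 3 of 44 slopes, those of TRP4, TRP5 and LYS21, all below 0, beside 3.85% of all genes, with the libraries labelled A in the fit. When only the footprint libraries labelled A were left out and all mRNA libraries kept, which was tried after the data were seen, the slopes of ARG5,6 (-0.39, edgeR adjusted p = 0.0104) and LYS21 (-0.24, edgeR adjusted p = 0.0124) were called, 2 of 44 beside 3.45% of all genes, which is near that share. ARG5,6 footprints thus fell against its mRNA in that fit, and in B and C alone the same slope was -0.34 (SE 0.11) with an adjusted p of 0.145 (edgeR). LYS21 in B and C alone had an efficiency slope of -0.21 (SE 0.06, edgeR adjusted p = 0.109).

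Taken over the whole cell cycle, GCN4 had the lowest footprint level of the 44 relative to its mRNA. Per length it had 24.2 ± 19.2 CPM per kb in footprints and 265 ± 92.4 CPM per kb in mRNA (SD, n = 24 each), so it ranked 42nd of the 44 in footprints and 5th in mRNA. The log2 difference, footprint less mRNA, was -3.96 ± 1.79 log2 (SD, n = 24) and below 0 in 24 of 24 pools. Of the 3301 genes, 8.21% had a lower mean. A difference of 0 is not the midpoint of all genes on this scale. HIS1, at -1.52 log2, was above 51.1% of them, and PRO1, at -0.0062 log2, was above 77.6%. Over replicates B and C it was -4.42 ± 1.92 log2 (SD, n = 16), with 17.9 ± 14.6 CPM per kb in footprints. These values rest on 762 footprint reads and 19334 mRNA reads in all, and 5 footprint libraries, each with fewer than 150000 reads, held no read of it, so that the value there is set by the prior count and the depth. In the 18 pools with at least 150000 footprint reads, a choice made after the data were seen, the difference was -3.10 ± 0.82 log2 (SD, n = 18), still the lowest of the 44, and 11.8% of all genes were lower. The GCN4 footprint slope was -0.0060 (SE 0.07, edgeR adjusted p = 0.993) with all libraries and 0.11 (SE 0.07, edgeR adjusted p = 0.279) over B and C. Without the shallow libraries of B and C it was 0.15 (SE 0.05, edgeR adjusted p = 0.0159).

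The enzymes differed in the same measure. ILV3, ILV6, BAT1 and LEU4, all of the branched-chain pathway, had the highest footprint over mRNA levels of the 44, with 3.69 ± 0.76, 3.35 ± 0.80, 3.21 ± 0.55 and 2.67 ± 0.60 log2 (SD, n = 24), and were above 0 in all 24 pools. Over replicates B and C their means were 3.73, 3.17, 3.23 and 2.71 log2 (n = 16). At the other end, after GCN4, came TRP1 (-2.71 ± 1.33) and ARO7 (-2.38 ± 1.71), each below 0 in all 24 pools. Both had no footprint read in 2 shallow libraries, where the value is set by the prior count and the depth. In the 18 pools with at least 150000 footprint reads TRP1 had -2.58 ± 0.60 and ARO7 -2.03 ± 0.68 log2, and over replicates B and C -2.85 ± 1.56 and -2.55 ± 2.03 log2. CPA1, HIS5 and LYS12 followed with medians of -1.79, -1.79 and -1.77 log2, which differ by less than their spread over pools. Of all genes, 99.1% had a lower value than ILV3 and 24.7% a lower value than TRP1. TRP1 (675 bp), ARO7 (771 bp) and GCN4 (846 bp) have the shortest ORFs of the 44. The next shortest, HIS1 (894 bp), ranked 7th from the lowest, while ILV6 (930 bp) was among the highest. Whether ORF length bears on this measure was not tested. How far the 2 kinds of library can be compared in level is limited: TDH3, the main glyceraldehyde-3-phosphate dehydrogenase and among the most abundant yeast messages, had 20700 ± 12300 CPM in footprints and 293 ± 169 CPM in mRNA (SD, n = 24). Whether the low TDH3 level of the mRNA libraries extends to the genes here was not tested.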

How the data were processed

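Per the labels, elutriated BY4743 cells of 8 sizes gave 3 pools each and 48 libraries. Per the submitters' processing notes, the tools include TopHat2 2.1.0, Bowtie 1.1.2 and RSEM 1.2.20, with cutadapt 1.8, and the genome build is R64. The authors deposited raw read counts for 3301 genes, none below 10 reads in any mRNA library. They also deposited log2 mRNA levels for 6713 ORFs relative to each gene's mean, replicates pooled, which were only described. The assay of each count table, unnamed in its header, was settled by its closeness to the named blocks of the deposited per-library log2 table (median absolute difference 0.203 for footprints and 0.0168 for mRNA, against 0.491 and 0.579 crossed). These differences are in log2.

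Counts were fitted with edgeR 4.0.16 (R 4.3.3, quasi-likelihood, robust, TMM within assay), across sizes and along size, and efficiency as the assay by size interaction. No gene failed edgeR's filter on low counts. The threshold was a Benjamini-Hochberg adjusted p of 0.05 over the 3301 genes. Log2 levels have a prior count of 2. Isozyme ratios were compared over the libraries by permutation. Fits and ratios were tested on simulated data.

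The members, gene lists, tests and rules were chosen with earlier results of these data known. Genes described with values by rule were the smallest p of each pathway, the 5 largest and 3 smallest called slopes, the 3 smallest footprint p and the 4 widest pooled ranges; others were named after their values were seen. Values of 2 members are not reported here, though they stay in the counts. Alternatives were DESeq2 1.42.0, limma 3.58.1 (voom), median-of-ratios scaling, no filter, a replicate block, and libraries left out. The pool pairs a footprint library with an mRNA library, both made from its cells, and their deviations from the size means correlated by 0.1137 on average. The labels call the pools independent replicates, and p-values measure the spread between them. Promoter and protein sequences were not analysed here. Depth limits precision in the 6 footprint libraries under 150000 reads, and FAR11 took 9.65% to 25.1% of the reads of 3 footprint libraries. Among mRNA libraries 40 fl B was the shallowest, where PRO1, ARG5,6, BAT2 and GDH1 had 10, 15, 24 and 35 reads.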

Additional observations from a re-analysis of the deposited data

How the results depend on the processing

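The 18 rising mRNAs remained 18, the same genes, with median-of-ratios scaling, DESeq2, limma-voom, no filter and a replicate block, and 13 to 16 were called without 1 replicate. The 12 that no alternative lost were HIS1, HIS4, LYS9, LYS12, LYS21, TRP4, TRP5, ARO1, HOM2, SER2, GLN1 and GDH1. Falling mRNAs numbered 3, and 5 with the replicate block, 0 (without C) to 4 without 1 replicate, and 1 (without 40 fl A) to 6 (without 75 fl B) without 1 library. mRNAs differing across sizes numbered 13, and 21 by DESeq2, 2 (without C) to 14 without 1 replicate, 6 without B, and 10 to 15 without 1 library. HIS4 and GDH1 alone kept that call in all 32 alternatives; SER2 lost it in 21 and GLN1 in 17. Footprints differing across sizes numbered 0, and 1 by DESeq2, 12 without replicate A (0 without B or C) and 21 without replicate A and the shallow libraries. Footprint slopes numbered 0, and 14 and 19 in those settings. Efficiency slopes numbered 0, and 3 by DESeq2, 3 without the shallow libraries (TRP4, TRP5 and LYS21), 2 without the footprints of replicate A, where 2 also differed across sizes (ARG5,6 and LYS9), and 0 without any 1 replicate. Why these settings differ was not tested. The slope of the ASN1 to ASN2 ratio had an adjusted p of 0.0094, against 0.424 for the F statistic (0.155 to 0.944 without 1 replicate); the other ratios passed nowhere. The GCN4 slope was -0.0134 to 0.0484 without 1 replicate and -0.0013 to 0.0557 without 1 library. Other counts of calls and ratios kept their side, and no named gene's called slope reversed. Libraries that share only a letter deviated together weakly on average (mean correlation 0.0277 to 0.0688 in mRNA), and letters were not taken as pairs. Single correlations ran from -0.5239 to 0.7533 in mRNA of replicate A, so a small mean does not show that libraries of a letter are unrelated. Blocking by pool changed no efficiency call.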
